A study of Mus musculus with 3 samples.

Results

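The ErbB receptor family was examined for DNA copy number in 3 neurosphere lines grown from mouse gliomas that had become resistant to CSF1R inhibition. The family has 4 genes, Egfr, Erbb2, Erbb3 and Erbb4, of 21138 genes named on the array. Members were found by the gene name the array gives each probe, which yielded 130 of 170293 probes: 17 named Egfr, 2 named Erbb2, 3 named Erbb3 and 108 named Erbb4. Each gene was also described over a window that reached 500 kb past its first and last probe. These windows held 79 probes for Egfr, 105 for Erbb2, 98 for Erbb3 and 143 for Erbb4.

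ErbB receptors are tyrosine kinases at the cell surface that pair up when an EGF-like or neuregulin ligand binds, and then signal through the Ras and PI3K pathways. Egfr and Erbb4 bind ligands and have active kinases, Erbb2 has no known ligand and serves as the preferred partner of the others, and Erbb3 binds neuregulins but has only a weak kinase and couples strongly to PI3K. In human glioblastoma EGFR is known for high-level amplification and for a deletion within the gene that removes part of the ligand-binding region, which is why shifts within each gene were sought as well as shifts over all of it.

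All samples form 1 group of 3 lines, taken at passages 2 to 3 in mouse neural stem cell medium. DNA of each line (Cy5) was hybridised with mouse liver DNA (Cy3) on 1 array, and no dye swap and no untreated or CSF1R inhibitor-sensitive line is among the samples used here. Lines 2 and 3 carry 1 animal number with the letters A and B and the same liver label, and line 1 carries another number. The p-values treat the 3 lines as independent, which lines 2 and 3 may not be. They rest on the spread between these lines, part of which may be technical, combined with a spread pooled over all features tested. A feature's p-value therefore does not measure its own spread alone. Strain, age, tumour driver and the inhibitor's name are not given in the sources used here. Values are log2 of line over liver, centred on each array's autosomal median, so that 0 is the usual level of that array. 3 copies in every cell would give 0.58 and the loss of 1 of 2 copies -1 on an ideal array. The spread of neighbouring probes, a robust estimate from their differences, was 0.38, 0.23 and 0.24 in the respective lines, so line 1 is the least precise. None of the 130 member probes was saturated or marked as an outlier, and all but 5 of them, all in Erbb4, were well above background in both channels on every array.

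The probes are genomic oligonucleotides of about 60 bases that lie about 10.9 kb apart over the whole array, so a gene as short as Erbb2 or Erbb3 rests on very few of them. The sequences on which the Erbb2 and Erbb3 values rest in full, and the lowest and highest of the Erbb4 probes, are shown 5′ to 3′ as the scanner files list them, with each CG dinucleotide in capitals. Coordinates are in mm9.
Erbb2 probe at chr11:98278506-98278565: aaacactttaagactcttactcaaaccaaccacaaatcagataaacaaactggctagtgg
Erbb2 probe at chr11:98287914-98287973: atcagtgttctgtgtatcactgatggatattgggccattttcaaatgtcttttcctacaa
Erbb3 probe at chr10:128010082-128010141: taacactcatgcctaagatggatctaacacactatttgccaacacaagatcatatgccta
Erbb3 probe at chr10:128017497-128017556: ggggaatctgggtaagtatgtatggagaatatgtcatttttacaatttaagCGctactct
Erbb3 probe at chr10:128025552-128025610: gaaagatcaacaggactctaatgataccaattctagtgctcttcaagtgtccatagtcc
Erbb4 lowest probe at chr1:68391217-68391276: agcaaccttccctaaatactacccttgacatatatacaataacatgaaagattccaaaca
Erbb4 highest probe at chr1:69045130-69045189: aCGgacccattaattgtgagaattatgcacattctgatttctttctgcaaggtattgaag
The files do not give the strand of these letters, and exon and intron positions were not used here. A CG dinucleotide was present in 6 of 17 Egfr probes, 0 of 2 Erbb2 probes, 1 of 3 Erbb3 probes and 39 of 108 Erbb4 probes (36.1%), against 35.7% of all probes. The median GC content was 36.7% for Egfr, Erbb2 and Erbb4 and 38.3% for Erbb3, against 36.7% over all probes.

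No member showed a shift over its whole neighbourhood that came near the size of a gained or lost copy in every cell. The 12 window means, 1 for each gene and line, ran from -0.10 (Egfr, line 2) to 0.11 (Erbb2, line 3). A window mean of at least 0.2 in size in any line was found for 218 of 21115 gene windows (1.03%), and for none of the 4 members. Read as a mixture of cells with 2 copies and cells with 3 copies of the whole window, the upper 95% bounds allow at most 30.01% of cells with 3 copies (Erbb3, line 1). For cells with 1 copy the largest share allowed is 20.6% (Egfr, line 3). These bounds take the array's median as 2 copies, assume the ratios of an ideal array and cover the scatter of probes only. How fully these arrays reach the ideal ratios was not measured, and a weaker response would allow larger shares.

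**Figure D1:**
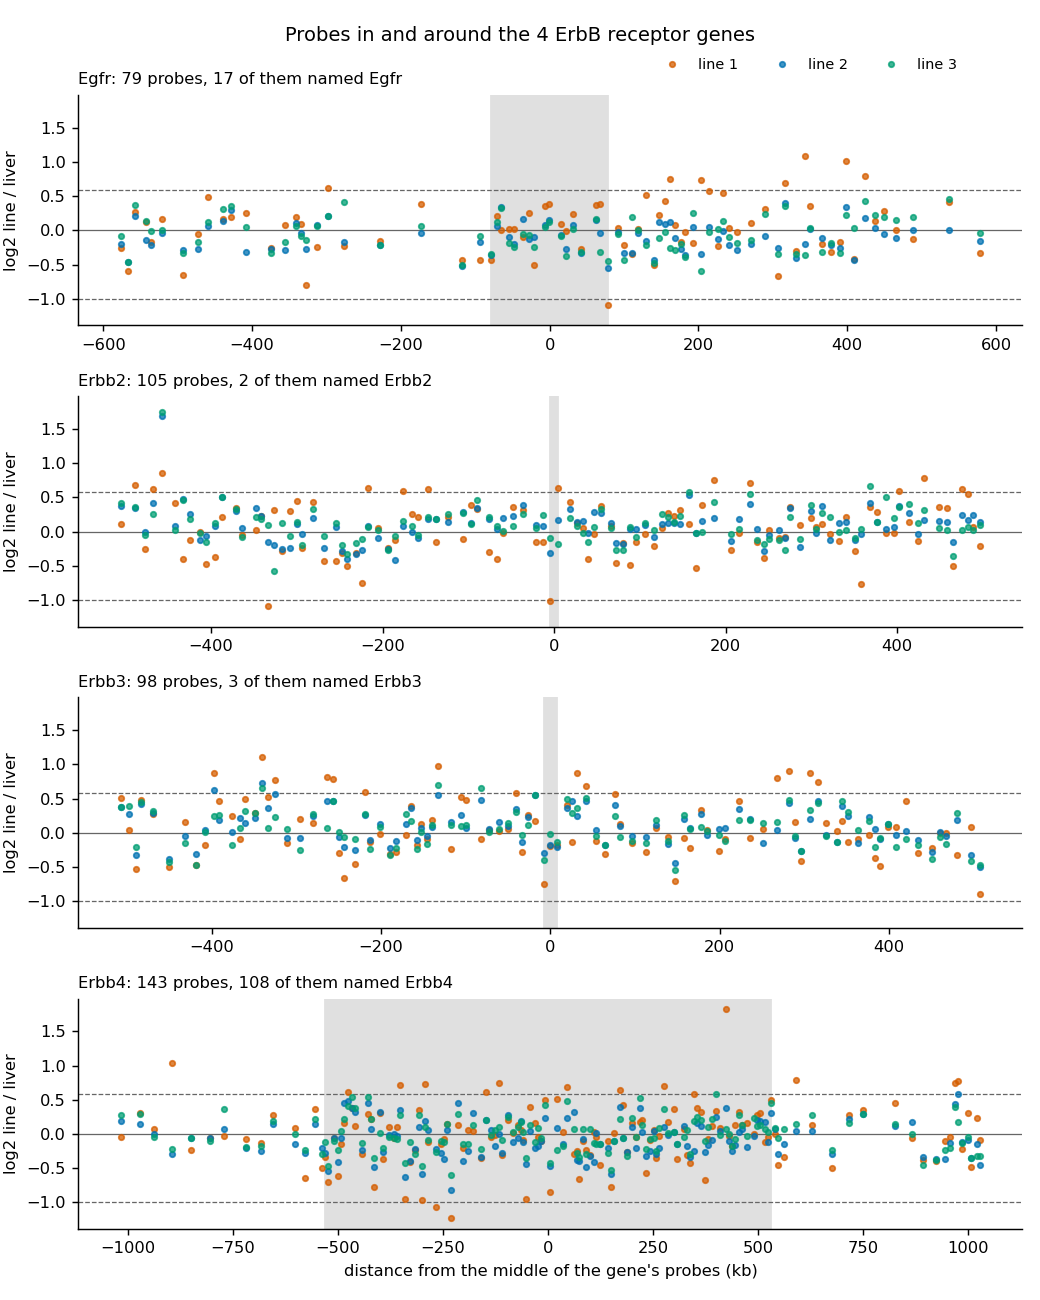
Log2 of line over liver (vertical axis) for every probe in the window of each ErbB gene, against distance in kb from the middle of the gene's probes, with lines 1, 2 and 3 in orange, blue and green. Grey bands span the gene's own probes and dashed lines mark 0.58 (3 copies in every cell) and -1 (1 copy); the probes scatter around 0 across all 4 windows.

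Segmentation, which divides each chromosome into stretches of equal level, called 0 segments (mean at least 0.2 in size) over the whole genome. None could therefore overlap a member's window in any line. The count over the members was also 0 under each of the 9 other settings. All but the most sensitive of these called only 0 to 4 segments over the whole genome, so their counts say little about the members. Segments needed at least 5 probes in every setting, so a shift confined to Erbb2 or Erbb3 could not form one. The most sensitive setting called 51 segments elsewhere. With that setting, a penalty of 2 and at least 5 probes, the stretches lying over the genes were still small: in line 3 a stretch of 246 probes over Erbb2 (chr11:97068944-99461927) averaged 0.13. In line 2 a stretch of 198 probes over Erbb3 (chr10:126371224-128401153) averaged 0.13, and one of 225 probes over Egfr (chr11:12615341-17933933) averaged -0.13. These stretches were not called.

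**Figure D2:**
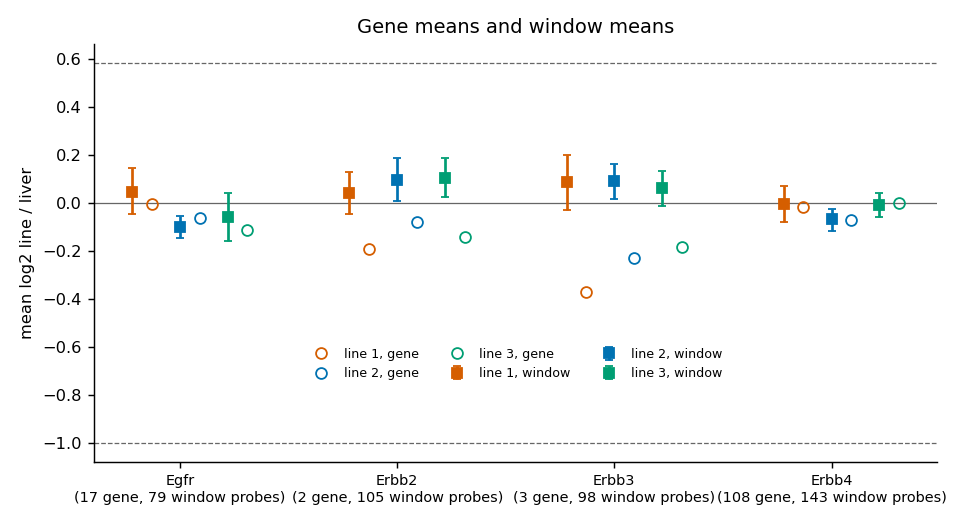
Mean log2 of line over liver for each gene's own probes (open circles) and for its window (filled squares with 95% intervals over blocks of 10 neighbouring probes), by line; dashed lines mark 0.58 and -1. Window means stay between -0.10 and 0.11, while the 3 Erbb3 gene means lie below their windows, at -0.37, -0.23 and -0.19.

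Egfr, the receptor for EGF, TGF-alpha and related ligands, lay at the liver level over its 17 probes (chr11:16656658-16813188). Its gene means in the 3 lines were -0.0025, -0.064 and -0.11, in the order of the line numbers. The mean of -0.059 ± 0.054 (SD, n = 3) did not pass limma's test over 9462 genes with at least 3 probes (adjusted p = 0.325), in which 24.1% of genes passed. The interval of this mean, -0.15 to 0.037, contains neither 0.58 nor -1. Of the 17 probes, 6 were above 0 in all 3 lines, 5 were below in all 3 and 6 were mixed. The lowest was the last one, at chr11:16813129-16813188, which read -1.09, -0.55 and -0.45 in lines 1, 2 and 3, whereas the probe before it read 0.39, -0.033 and -0.32.

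Within Egfr no step was found between its lower and higher coordinates. The comparisons took 8 probes on each side, tiles of 5 probes and segments of at least 5. Egfr has 17 probes at a median spacing of 9329 bp. A deletion within the gene that covers only a few of them need not pass any of these comparisons. The 8 probes at lower coordinates, where RefSeq places the gene's start, averaged -0.065, -0.039 and -0.087, and the 8 at higher coordinates 0.016, -0.11 and -0.15. Their difference was 0.018 ± 0.086 (n = 3, limma adjusted p = 0.778), against 27.6% of 2785 genes that passed; it changed sign between line 1 and the other lines. In tiles of 5 neighbouring probes, 0 of the 3 tiles centred in Egfr passed, where 33.9% of 34051 tiles did. Of the 13 tiles centred beside it, 0 passed above 0 and 2 below (15.4%, against 16.6% of all tiles). The first lies at lower coordinates than the gene (chr11:16458274-16641604) and read -0.17, -0.22 and -0.065 (limma adjusted p = 0.027). With within-array loess it passed as well (-0.21, adjusted p = 0.0049). The other starts at the last 2 Egfr probes and runs past the gene (chr11:16802410-16845356). This tile read -0.24, -0.25 and -0.21 (limma adjusted p = 0.0022), and passed with within-array loess too (-0.20, adjusted p = 0.0047). It holds the probe that read -1.09, -0.55 and -0.45.

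The Egfr neighbourhood differed most between line 1 and line 2. The window mean was 0.048 for line 1, against -0.10 and -0.057 for the others; it lay above 0 only in line 1. The mean of lines 2 and 3 minus line 1 was -0.13 (95% interval over probe blocks -0.24 to -0.017), and 2.28% of gene windows differed by as much. Line 2 minus line 1 was -0.15 (-0.25 to -0.054), whereas the interval of line 3 minus line 1 included 0 (-0.10, -0.25 to 0.032). Line 3 minus line 2 was 0.044 (-0.043 to 0.13). Over all 3 lines the window mean of -0.036 ± 0.076 did not pass limma (adjusted p = 0.201), where 44.1% of 21115 windows passed. It passed below 0 without line 1 (-0.079, limma adjusted p = 0.011), a fit that rests on 1 animal number, and with each chromosome centred on its own median (-0.060, adjusted p = 0.020).

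Erbb2, the receptor without a known ligand and the one amplified in a share of human breast cancers, has only 2 probes here (chr11:98278506-98287973), and these disagreed. The first read -1.02, -0.32 and -0.092 in lines 1, 2 and 3, and the second 0.64, 0.16 and -0.19. The order of the probes turned over in line 3, and the gap between them was widest in line 1, the line with the largest scatter. The gene means were -0.19, -0.078 and -0.14. With 2 probes Erbb2 was left out of the test of genes with at least 3; in a fit that admitted every gene with a probe its mean of -0.14 ± 0.057 did not pass (n = 3, limma adjusted p = 0.0997), where 22.5% of 21138 genes passed.

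The wider Erbb2 region lay slightly above the liver level. Its window of 105 probes averaged 0.043, 0.097 and 0.11, all 3 lines above 0. The mean of 0.082 ± 0.034 passed limma (n = 3, adjusted p = 0.0025), but 33.7% of gene windows passed above 0 and 10.4% below, so a call above 0 was common over the genome. The passing windows split 7116 above to 2186 below, and 4487 above to 3768 below in the authors' deposited value table. The Erbb2 call was lost without line 3 (0.070, limma adjusted p = 0.073) and with 250 kb on each side (0.042, adjusted p = 0.198).

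Inside the Erbb2 window, 7 of the 21 tiles centred beside the gene passed above 0 (33.3%, against 17.3% of all tiles) and 1 below (4.76%, against 16.6%). Of these 8 tiles 6 also passed with loess. Among neighbours with at least 3 probes the highest was Plxdc1, which encodes a transmembrane protein first known from tumour endothelium, with 0.46, 0.50 and 0.47 over 5 probes (chr11:97795105-97840742). Its mean of 0.48 ± 0.022 passed limma (n = 3, adjusted p = 0.0031) and kept its size with loess (0.46, adjusted p = 0.00073). Of 34051 tiles, 19 had a mean as high as the tile of these 5 probes, and 2, this one included, were as high in every line. Plxdc1 was named for its high mean, so this rank describes it and is not separate support. The 5 probes were uneven: 1 of them read 0.86, 1.69 and 1.76, while another read -0.26, -0.0081 and -0.054. The lowest of these neighbours was Med1, a subunit of the Mediator complex, at -0.39, -0.24 and -0.13 (mean -0.25, limma adjusted p = 0.015), which did not pass with loess (-0.055, adjusted p = 0.412; 21.9% of all genes passed with loess). Grb7, an adaptor gene that lies beside Erbb2 and is often amplified with its human counterpart, had 1 probe, which read 0.12, 0.14 and 0.077.

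Erbb3, the neuregulin receptor with a weak kinase, was the only member whose own mean passed the gene test, and it passed below 0. Its 3 probes (chr10:128010082-128025610) read -0.75, -0.19 and -0.18 in line 1, -0.30, -0.18 and -0.20 in line 2, and -0.40, -0.017 and -0.14 in line 3. All 9 readings lay below 0, and the first probe was the lowest in every line. The gene means were -0.37, -0.23 and -0.19, a mean of -0.26 ± 0.098 (n = 3, limma adjusted p = 0.0095), where 14.2% of genes passed above 0 and 9.96% below, and where 5.25% had a mean as far from 0.

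The region around Erbb3 lay on the other side of 0. Its window of 98 probes averaged 0.089, 0.093 and 0.064, and the mean of 0.082 ± 0.016 passed above 0 (limma adjusted p = 0.0024). Erbb3 minus its flanks was therefore larger in size than the gene mean, at -0.48, -0.33 and -0.26, a mean of -0.35 ± 0.11 (n = 3, limma adjusted p = 0.00999). In that test 24.1% of 9458 genes passed, 13.9% below 0, and 1.23% had a difference as far from 0.

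The Erbb3 result changed with the processing of the intensities, and the cause of the change was not tested. Its 3 probes were brighter than 99.98%, 95.9% and 83.8% of all probes, in the order of their coordinates. Over the brightest 10% of autosomal probes the median log2 ratio was -0.35, -0.22 and -0.24 in lines 1, 2 and 3, and over the dimmest 10% it was 0.28, 0.22 and 0.21. Within-array loess, which removes the trend of the ratio with brightness, brought each of these medians to between -0.027 and 0.027. With normexp background correction the medians were 0.16, 0.0029 and -0.059 for the brightest 10% and -0.32, -0.091 and -0.011 for the dimmest. With loess the first Erbb3 probe read -0.044, 0.064 and 0.015, the second 0.15, 0.023 and 0.20, and the last 0.025, -0.094 and -0.018.

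The Erbb3 gene mean changed sign with loess and with normexp: it was 0.036 with loess (limma adjusted p = 0.558; 21.9% of genes passed) and 0.016 with normexp background correction (adjusted p = 0.827; 23.7% passed). In the authors' deposited value table it was -0.046 (adjusted p = 0.398; 19.4% passed). The difference from the flanks stayed below 0 under these 3 settings but no longer passed, at -0.055, -0.074 and -0.098 (adjusted p = 0.334, 0.260 and 0.103; with loess 15.1% of all flank differences passed). Leaving out each line in turn did not end the gene call (means -0.30 to -0.21, adjusted p from 0.00018 to 0.030). Over all genes, 1342 of the 2284 passing means were above 0, against 802 of 1838 in the deposited table.

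**Figure D3:**
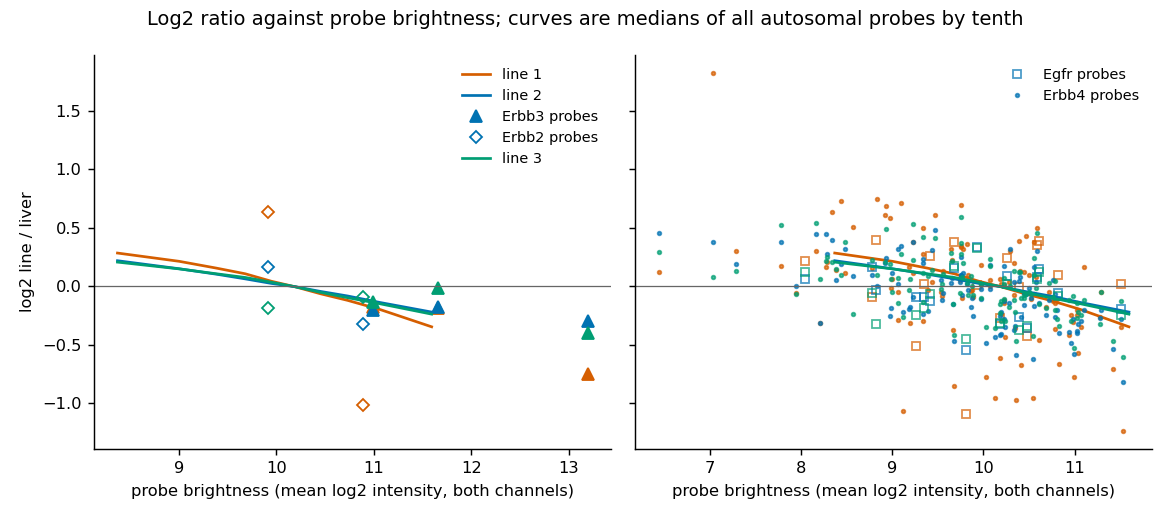
Log2 of line over liver against probe brightness (mean log2 intensity of both channels, horizontal axis) for Erbb3 and Erbb2 probes on the left and Egfr and Erbb4 probes on the right, coloured by line. Curves join the medians of all autosomal probes in 10 equal classes of brightness and fall from 0.28, 0.22 and 0.21 to -0.35, -0.22 and -0.24; the 3 Erbb3 probes lie at the bright end.

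Of the 18 tiles centred beside Erbb3, 5 passed above 0 and 0 below (limma adjusted p under the threshold; 17.3% and 16.6% of all tiles), and 4 of the 5 also passed with loess. The 1 tile centred in the gene did not pass and averaged -0.032. Besides the 3 Erbb3 probes this tile holds 2 others, so it is not a reading of Erbb3 alone. The probe of the neighbouring gene Pa2g4 read 0.17, 0.55 and 0.55 in lines 1, 2 and 3. The other, which has no gene name, read 0.26, 0.24 and 0.12. The nearest passing tile on the higher-coordinate side (chr10:128037806-128072147) read 0.34, 0.31 and 0.32, and 0.27 on average with loess. Only its last probe is named for a gene, Ikzf4, a lymphoid transcription factor, and that probe read -0.13, 0.040 and -0.044. Among neighbours with at least 3 probes, the highest mean was that of Smarcc2, a subunit of the SWI/SNF chromatin remodelling complex, at 0.17 ± 0.074 (limma adjusted p = 0.026; with loess 0.070, adjusted p = 0.248). The lowest was that of the RNA-binding protein gene Rbms2, at -0.23 ± 0.046 (limma adjusted p = 0.0089; with loess -0.086, adjusted p = 0.174). Both lost their call with loess, as the Erbb3 mean did.

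Erbb4, a neuregulin receptor with a role in neural development, spans 1061 kb between its first and last probe (chr1:68090669-69152044) and so was measured in far more detail than the others. Its gene means were -0.016, -0.071 and -0.00089. The mean of -0.029 ± 0.037 (n = 3) did not pass limma (adjusted p = 0.614), with an interval of -0.12 to 0.063. The window, at -0.0026, -0.068 and -0.0084, did not pass either (mean -0.026 ± 0.036, adjusted p = 0.361), nor did the gene minus its 35 flanking probes (-0.012 ± 0.042, adjusted p = 0.835). Single probes spread around 0 as probes over the whole array did: 35 of 108 (32.4%) were above 0 in all 3 lines and 37 (34.3%) below, against 32.9% and 34.2% of all probes.

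Along the gene the level moved by small amounts. RefSeq places Erbb4 on the minus strand, so the higher coordinates hold its start. The 54 probes at lower coordinates averaged -0.072, -0.075 and -0.020 in lines 1, 2 and 3, and the 54 at higher coordinates 0.041, -0.067 and 0.018. The difference of -0.053 ± 0.054 (n = 3) did not pass limma (adjusted p = 0.319). In 9 blocks of 12 probes the 3-line mean ran from -0.16 in the second block to 0.087 in the eighth, with all 3 lines below 0 in blocks 2, 3, 5 and 6 and all above 0 in block 9 alone.

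**Figure D4:**
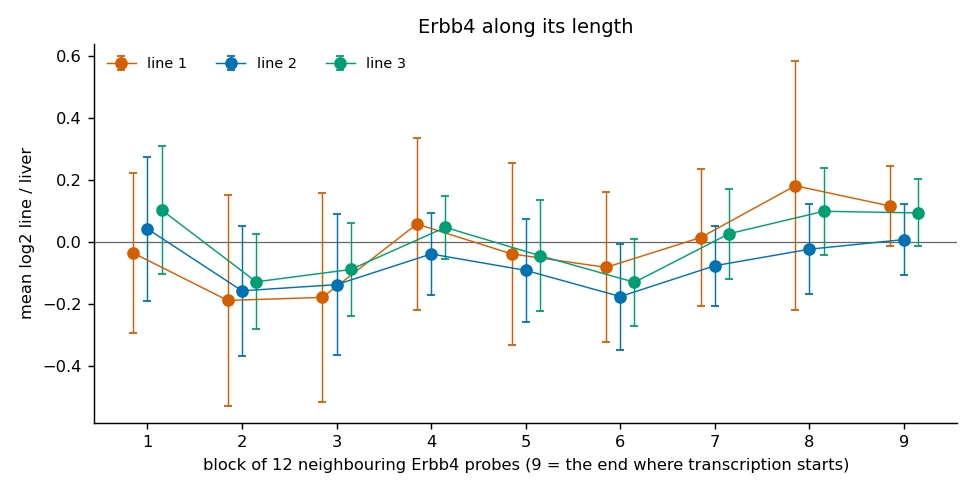
Mean log2 of line over liver in 9 blocks of 12 neighbouring Erbb4 probes, ordered by coordinate, for lines 1, 2 and 3, with bars for the 95% interval over the 12 probes. The 3-line means run from -0.16 (block 2) to 0.087 (block 8) and none comes near 0.58 or -1.

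Of the 22 tiles centred in Erbb4, 1 passed above 0 and 6 below. These 7 make 31.8%, close to the 33.9% of all tiles. By direction 4.55% passed above 0, against 17.3% of all tiles, and 27.3% below, against 16.6%; the difference was not tested. The lowest tile and the highest lie side by side at the gene's end: the first 5 probes (chr1:68090669-68129277) read -0.38, -0.27 and -0.18 (limma adjusted p = 0.0017). The next 5 (chr1:68136020-68179093) read 0.19, 0.28 and 0.28 (limma adjusted p = 0.0019). With loess the first kept its call (-0.15, adjusted p = 0.023) and the second lost it (0.085, adjusted p = 0.205); the first had a mean brightness of 10.9 and the second of 8.96 on the log2 scale. With loess 7 of the 22 tiles passed (31.8%, against 30.5% of all tiles), 6 of them the same tiles in the same direction. They include 3 in a row below 0 from chr1:68292882 to 68442987, with means of -0.13, -0.16 and -0.16.

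The extreme Erbb4 probes came from both ends of the brightness range. The lowest, shown above, read -1.24, -0.82 and -0.61 and was brighter than 94.5% of all probes; with loess it still read -0.87, -0.65 and -0.42. The highest read 1.83, 0.37 and 0.074. It was brighter than only 0.398% of probes and was not well above background in every channel, so its value in line 1 rests on very little signal. Without such dim probes the difference between the lower and higher coordinates of Erbb4 was -0.021 in place of -0.053.

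Readings of single probes recurred from line to line. Across the 108 Erbb4 probes Pearson's r of line 1 was 0.758 with line 2 and 0.726 with line 3, and that of line 2 with line 3 was 0.836. The same 3 pairings gave 0.698, 0.614 and 0.898 across the 17 Egfr probes. These are correlations across probes, which share their sequence and brightness in every array, and over all probes the values were 0.694, 0.640 and 0.814. Lines 2 and 3 were the most alike in each case, and they share an animal number and a liver label. Between them Erbb4 still differed by 0.070 (line 3 minus line 2, 95% interval over probes 0.041 to 0.099), but 44.5% of genes differed by as much.

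With the main processing, the order of the members by gene mean was Erbb3 (-0.26), Erbb2 (-0.14), Egfr (-0.059) and Erbb4 (-0.029). Among the 3 members with at least 3 probes this order changed with the processing. With loess Egfr was at -0.089, Erbb4 at -0.063 and Erbb3 at 0.036. With normexp Erbb3 was also the highest (0.016), and in the deposited table Egfr was the lowest (-0.10). With the main processing Erbb3 lay below Erbb2 in all 3 lines, by 0.12 ± 0.071 (n = 3), and Erbb2 below Egfr in all 3, by 0.078 ± 0.097. The ranges over the lines overlapped in each of these pairs. Egfr lay below Erbb4 in 1 line only (step 0.030 ± 0.069). The last 2 steps were smaller than their SD, and no step was tested. By window mean Erbb2 and Erbb3 (both 0.082) lay above Erbb4 (-0.026) and Egfr (-0.036). In each line both upper windows were above that of Erbb4; in line 1 the Egfr window (0.048) lay above the Erbb2 window (0.043).

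The genes whose 3 gene means were most like a member's, by Euclidean distance over the 3 lines, lay on other chromosomes except AK132600 and Pid1. For Egfr they were Dennd2c (distance 0.011), Emx2os (0.011) and Skint4 (0.013). For Erbb2 they were Dok5 (0.015), Prmt7 (0.017) and the transcript AK132600 (0.018). For Erbb3 they were Mpp1 (0.035), Syt12 (0.039) and Vopp1 (0.042). For Erbb4 they were Pid1 (0.0061), Mtmr3 (0.012) and Dpyd (0.013). In the Egfr window the highest and lowest neighbours with at least 3 probes were Wdr92 (0.013, limma adjusted p = 0.878) and Vstm2a (-0.13, adjusted p = 0.061), and in the Erbb4 window the single neighbour with at least 3 probes was Ikzf2 (0.040, adjusted p = 0.578). None of these 3 neighbours passed.

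Genes that act with the receptors were followed in 3 lists of 66 genes, of which 48 had at least 3 probes. In all 7 passed above 0 and 2 below, which is 18.8% against the 24.1% of all genes tested, and the median of the 48 means was 0.025 against 0.011 for all genes. No window of the 65 listed genes on the array left the range of -0.16 to 0.20 in any line. Of these 65 windows 33 passed above 0 and 4 below, where 33.7% of all gene windows passed above 0 and 10.4% below. Their median was 0.053, against 0.030 for all windows. Windows of neighbouring genes overlap, and the difference was not tested.

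Of the 11 ligand genes 8 were tested, with a median of -0.073. Of these 0 passed above 0 and 1 below (12.5%, against 24.1% of all genes). The gene below was Nrg3, which encodes a neural neuregulin that binds Erbb4. Over 118 probes on chromosome 14 it averaged -0.15, -0.13 and -0.13 in lines 1, 2 and 3, a mean of -0.14 ± 0.014 (limma adjusted p = 0.037; with loess -0.16, adjusted p = 0.021). All 3 lines lay close together. Its window averaged -0.14 as well, so the gene did not differ from its flanks (difference 0.0044, adjusted p = 0.939). The Nrg3 gene call did not outlast leaving out line 2 (limma adjusted p = 0.173) or line 3 (adjusted p = 0.130), the merging of lines 2 and 3 into 1 sample (adjusted p = 0.135) or the deposited table (adjusted p = 0.070).

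Of 22 genes for ligand shedding and receptor feedback 15 were tested, with 1 above 0 and 1 below (13.3%, against 24.1% of all genes). Lrig3, of the family of leucine-rich repeat proteins that interact with ErbB receptors, averaged -0.43, -0.30 and -0.21 over 6 probes (mean -0.31 ± 0.11, limma adjusted p = 0.0068), and about -0.17 with loess (adjusted p = 0.030). Ptpn12, a tyrosine phosphatase that acts on ErbB receptors, averaged 0.21, 0.13 and 0.39 over 8 probes (mean 0.25 ± 0.13, limma adjusted p = 0.017; with loess 0.21, adjusted p = 0.023). Each gene kept 1 sign in all 3 lines. Both calls were lost with normexp (adjusted p = 0.085 for Lrig3 and 0.076 for Ptpn12). The Ptpn12 call was also lost without line 3 (adjusted p = 0.081) and when the median of its probes replaced their mean (adjusted p = 0.525).

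Of 33 adaptor and direct effector genes 25 were tested. The share that passed was 24%, against 24.1% of all genes (14.2% above 0 and 9.96% below). In the list 6 passed above 0 and 0 below, a split that was not tested. Among them were Src (0.30 ± 0.20), a tyrosine kinase, Eps15 (0.22 ± 0.069) and Eps8 (0.17 ± 0.052), both EGF receptor substrates, and the adaptors Grb2 (0.16 ± 0.11) and Nck2 (0.15 ± 0.027). The limma adjusted p of these 5 ran from 0.012 to 0.044. With loess Eps15 (0.19, adjusted p = 0.013) and Grb2 (0.15, adjusted p = 0.0496) kept the call. Src (0.17, adjusted p = 0.058), Eps8 (0.098, adjusted p = 0.114) and Nck2 (0.050, adjusted p = 0.414) did not. Without line 2 the calls of Grb2 (adjusted p = 0.176), Nck2 (0.189) and Eps8 (0.126) were lost, and without line 3 that of Nck2 (0.090). With lines 2 and 3 merged the calls of Eps15 (adjusted p = 0.051), Eps8 (0.079), Grb2 (0.090) and Nck2 (0.120) were lost. Src, Eps8, Grb2 and Nck2 also missed the threshold with normexp (adjusted p from 0.056 to 0.464) and in the deposited table (0.144 to 0.999).

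**Figure D5:**
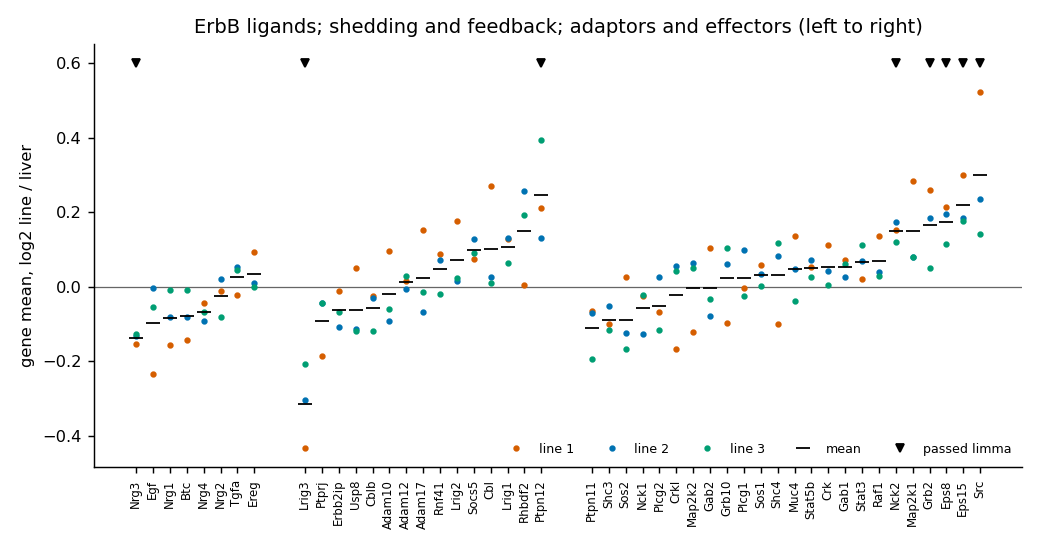
Gene means of log2 line over liver for tested genes of the ErbB pathway lists, ordered by mean within each list, with points for lines 1, 2 and 3, a bar for the mean and a triangle where limma's adjusted p passed. Means run from -0.31 (Lrig3) to 0.30 (Src), and Nrg3 and Lrig3 are the genes below 0 that carry a triangle.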

How the data were processed

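Genomic DNA of 3 lines and of mouse liver was hybridised on 3 two-colour Agilent arrays with 180880 spots, all on 1 slide. Intensities are the authors' processed signals, already background-subtracted, detrended and linearly dye-normalized per the file headers (Agilent Feature Extraction 10.7.3.1, build mm9, per the submitters' processing notes). The deposited value table holds log10 ratios; its centring was not given in the sources used here, and its column medians were 0.00044, -0.0015 and -0.0027. It was used as an alternative. Log2 ratios were computed from the deposited intensities for non-control probes, and centred on each array's autosomal median. Probes with an outlier mark on any array were left out. Gene means, window means, gene minus flanks, differences between the lower and higher coordinates of a gene and tiles of 5 probes were each tested against 0 with limma 3.58.1 (R 4.3.3, lmFit and eBayes, Benjamini-Hochberg, threshold 0.05) over all features, with genes of at least 3 probes, windows of at least 20 and split genes of at least 10. Segments of at least 10 probes came from the PELT method (penalty 10 times the log of the probe number). Scripts were tested on simulated data. Alternatives were normexp (offset 50), within-array loess, the deposited table, other filters, windows and centrings, and each line left out. No columns were unmapped (0). Named were the 4 members, listed genes past the gene threshold (1 of them is not reported here), the highest and lowest neighbour in each window and the 3 genes most like each member; the Ikzf4 tile, Grb7 and single probes were chosen after their values were seen. The members and lists were chosen with earlier results of these data known. The array's own gene names were kept. RefSeq (GRCm38.p6) gave only strands. With 3 arrays, their number limits the precision.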

Additional observations from a re-analysis of the deposited data

How the results depend on the processing

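Of 254 recomputed values and counts, 214 stayed within the limits used: direction and side of the threshold for tests, size for counts, and the interval over probes for untested line differences. Of the latter 5 changed sign within that interval, among them Erbb3 (0.17 to -0.14 with normexp and -0.013 with loess). The intervals of Erbb2 (-9.2 to 9.4) and Erbb3 (-0.36 to 0.69), over 2 and 3 probes, were so wide that staying within them says little. The Erbb3 gene mean of -0.26 turned to 0.016 with normexp and 0.036 with loess and was -0.046 in the deposited table, without a call in any of the 3; the Erbb3 difference from its flanks lost its call at -0.074, -0.055 and -0.098. The Egfr window gained a call with chromosome centring (-0.060), and the Erbb2 window lost it at 250 kb (0.042). Without each line the Egfr window ran from -0.079 to -0.0046 and the Erbb2 window from 0.070 to 0.10. Values that never passed changed sign: the Erbb4 window at 1 Mb (0.0099) and in the deposited table (0.0010), the Erbb4 difference from its flanks (-0.033 to 0.0085 without each line), and the Egfr coordinate difference with lines 2 and 3 averaged (-0.0072), normexp (-0.083), loess (-0.044), the deposited table (-0.055) and each line left out (-0.0076 to 0.067).

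Counts over all features moved more. With lines 2 and 3 averaged, 691 genes (of 2284), 447 coordinate differences (of 769) and 4 listed genes (of 9) passed. Without each line the counts ran from 1059 to 3220 for genes, 5523 to 8285 for windows (9302 with all lines), 1092 to 3840 for flank differences (2279), 0 to 1146 for coordinate differences, 6490 to 14128 for tiles (11554) and 5 to 13 for listed genes. The 0 arose with limma without line 3, where 859 of 2785 had an unadjusted p under 0.05. Flank differences numbered 1430 with loess and 1418 in the deposited table. Other probe minimums gave 4765 genes (at least 1 probe), 763 (at least 10), 362 coordinate differences (at least 20), 5948 tiles of 10 probes and 5 listed genes (at least 10), of fewer or more features tested. Where no construction shows it, the cause was not tested. No paired analysis was possible because all lines form 1 group. Line 1, with the widest scatter, limits all means, and Erbb2 and Erbb3 are limited by 2 and 3 probes.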
